A study of Mus musculus with 13 samples.

Results

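The interaction of genotype and injury was measured across 13 sciatic nerves of mice, each sequenced as 1 library. The labels give the strain as C57BL/6, to which the animals had been backcrossed. It is the effect of the knockout in crushed nerves minus the effect of the knockout in contralateral nerves, on the log2 scale. A negative value means that the ratio of RaptorKO to control was lower on the crushed side, and a positive value that it was higher there. Genes entered the test when they held at least 50 counts in at least 2 of the 13 libraries. This rule uses no contrast between groups and kept 12851 of the 40787 genes in the table. The crushed nerves, called injured here, were 3 of controls and 3 of RaptorKOs, and the contralateral nerves 3 of controls and 4 of RaptorKOs. RaptorKO mice were Rptor flox/flox with a tamoxifen-inducible Cre that acts mainly in Schwann cells (SCs) of this nerve. Controls carried the same floxed alleles without Cre and received tamoxifen as well, so the drug is shared by all 4 groups. Tamoxifen was given at 2 months of age, the nerve was crushed 2 months later, and all nerves were taken at 5 dpc (days post-crush). The contralateral nerves came from operated animals and were not themselves crushed. RNA came from the whole nerve freed of its epineurium, so each value is a mixture of SCs, macrophages, fibroblasts, vessels, and other cells. In such bulk samples, fewer cells of a type and less RNA per cell cannot be told apart.

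Raptor, the product of Rptor, is the subunit that recruits substrates to mTORC1, a kinase complex that promotes protein and lipid synthesis and cell growth. After a crush, the SCs distal to the injury shut down their myelin genes, turn on a repair program, and divide, while macrophages enter the nerve and clear debris. The interaction asks for which genes the consequence of losing Raptor depended on whether the nerve was injured.

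Library totals ranged from 8200476 to 13581788 counts. Levels are given as CPM, counts scaled to 1e+06 per library after TMM, and values are listed by replicate number. Gene positions are those of GENCODE M21 on GRCm38. Of the 79 tested genes named here, 33 overlap an annotated gene on the other strand, whose reads cannot be told apart if counting ignored strand. Rptor (ENSMUSG00000025583, chr11:119602905-119899576) stood at 43, 48.8, and 35.2 CPM in control and 26.2, 23.3, and 28.8 CPM in RaptorKO nerves on the injured side. On the contralateral side it stood at 52.4, 52.7, and 43.9 CPM in control and 24.5, 22.1, 28.1, and 23.4 CPM in RaptorKO nerves. The genotypes did not overlap on either side, and the knockout effects of -0.70 and -1.02 gave an interaction of 0.32 (SE 0.19, adjusted p = 0.533), which did not pass the test. Both control nerves numbered 3 stood apart in the sex-linked genes, with 14462 and 15017 counts for Xist against 4 to 17 in the other 11 libraries. Their Y-linked genes held 20 and 10 counts against 1456 to 2338. High Xist with few Y-linked counts marks female tissue, and the paper used mice of either sex. No RaptorKO library showed this pattern, so sex was not balanced between the genotypes. Leaving out both controls numbered 3 removes these nerves and also leaves fewer controls. RaptorKO injured 2 held less macrophage and more vessel RNA than the other injured knockout nerves, with values given beside the lists they touch. SC markers summed to 39110 to 43780 CPM in control contralateral, 31680 to 40040 CPM in RaptorKO contralateral, 3671 to 4199 CPM in control injured, and 2446 to 2975 CPM in RaptorKO injured nerves. Injured RaptorKOs lay below injured controls without overlap and the contralateral groups overlapped, while the 9 tested markers held 0 interaction calls and a median interaction of -0.04. The one tested skeletal muscle marker stayed at or below 32.5 CPM.

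Of the 12851 genes, 180 (1.40%) had a knockout effect that was more negative after injury and 137 (1.07%) one that was more positive (adjusted p below 0.05 by the quasi-likelihood test of edgeR, with Benjamini-Hochberg adjustment across the 12851 genes, and more than 1.2-fold). Protein-coding genes made up 173 and 133 of them. The change exceeded 2-fold for 100 of the negative and 74 of the positive genes, and 1809 genes had an unadjusted p below 0.05. The median interaction over all tested genes was -0.01. Calls followed expression level: 24 negative and 25 positive genes came from the 4284 with the lowest mean level, and 95 and 85 from the 4284 with the highest. The median SE fell from 0.39 in the former to 0.16 in the latter, so absent calls among weakly expressed genes carry little weight. Leaving out control contralateral 2 lowered the counts to 75 and 54, the largest loss from any 1 library, and leaving out both controls numbered 3 lowered them to 62 and 51.

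**Figure D1:**
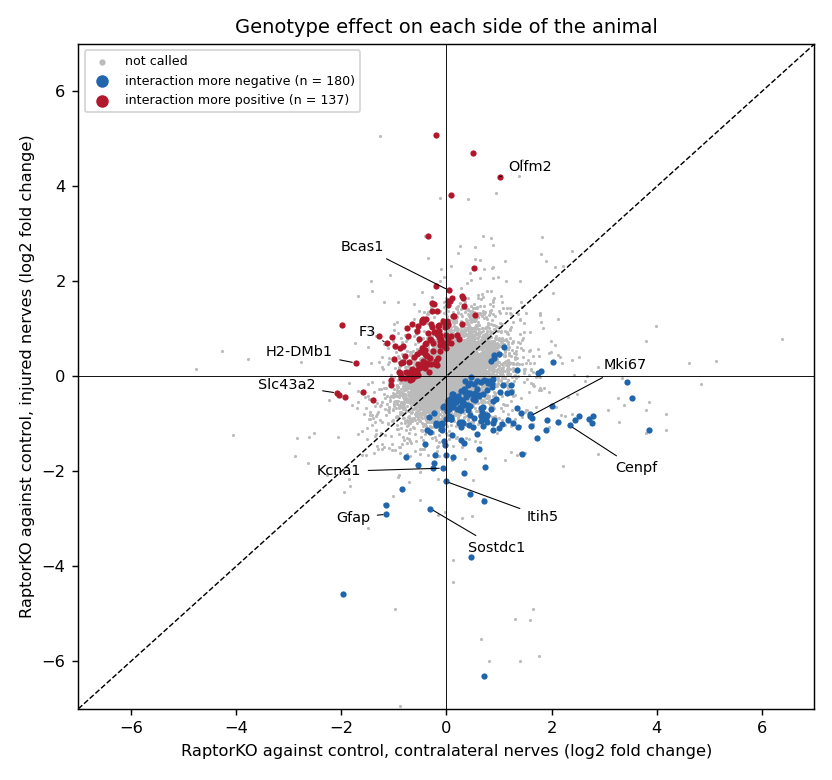
Log2 fold change between RaptorKO and control in contralateral (x axis) and injured nerves (y axis) for the tested genes, 5 of which lie outside the axes. On the dashed diagonal both effects are equal and the interaction is 0, the 180 blue genes lie below it, and the 137 red genes lie above it.

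In the same fit, the knockout lowered 706 genes (5.49%) and raised 599 (4.66%) in injured nerves, and lowered 775 (6.03%) and raised 526 (4.09%) in contralateral nerves. These effects enter the interaction and describe its calls without being independent of it. Among the 180 negative genes, the genotype effect itself was called on the injured side only for 100, on the contralateral side only for 39, on both sides in opposite directions for 22, on both sides in the same direction for 13, and on neither side for 6. Among the 137 positive genes the corresponding numbers were 68, 52, 9, 2, and 6. Genes with called and opposite genotype effects were 31 in all, or 0.241% of those tested. The libraries of both genotypes did not overlap on the injured side for 152 negative and 102 positive genes, against 26% of all tested genes. They did not overlap on both sides, in opposite directions, for 52 and 42 genes, against 1.22% of all tested genes.

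**Figure D2:**
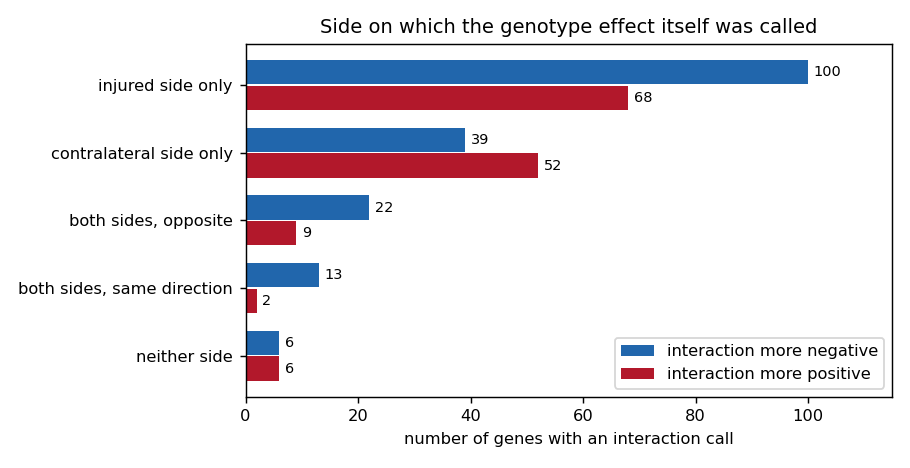
Number of genes with an interaction call (x axis) by the side on which the genotype effect itself passed the test (y axis), for more negative (blue) and more positive (red) interactions. The injured side alone accounted for 100 of 180 and 68 of 137 genes, and opposite effects on both sides for 22 and 9.

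Read as responses to the crush, the interaction is the response in RaptorKOs minus that in controls. Injury raised 4220 genes (32.8%) and lowered 4002 (31.1%) in controls, and raised 4137 (32.2%) and lowered 3831 (29.8%) in RaptorKOs. Of the 180 negative genes, 107 rose in both genotypes but less in RaptorKOs, 24 rose in controls without passing the test in RaptorKOs, and 10 rose in controls and fell in RaptorKOs. A further 21 fell in both, more in RaptorKOs, and 18 passed the test as a fall in RaptorKOs alone. Of the 137 positive genes, 81 fell in both genotypes but less in RaptorKOs, 28 fell in controls without passing the test in RaptorKOs, and 10 fell in controls and rose in RaptorKOs. Another 13 passed as a rise in RaptorKOs alone, and 5 rose in both, more in RaptorKOs. The mean level was highest in control injured nerves for 136 of the 180 negative genes and lowest there for 111 of the 137 positive genes. On the CPM scale, the difference of the differences had the opposite sign for 8 negative and 1 positive genes.

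Over all tested genes, 1.40% had a negative and 1.07% a positive call, which is the background for each list below. Genes of mitosis held the most interaction calls of the 32 lists examined. Of 66 tested, 23 (34.8%) passed the test in the negative and 0 in the positive direction, and 63 lay below 0, with a median of -1.42. Of the 66, the crush raised 66 in controls, with a median of 6.07 on the log2 scale, and 66 in RaptorKOs, with a median of 4.65. Over all tested genes, the knockout lowered 5.49% and raised 4.66% in injured nerves, and raised 4.09% and lowered 6.03% in contralateral nerves. It lowered 54 of the 66 mitosis genes and raised 0 in injured nerves, and raised 8 and lowered 1 in contralateral nerves. Their summed level was 5845, 5511, and 5712 CPM in control injured and 3424, 3213, and 2940 CPM in RaptorKO injured nerves. It was 197, 219.7, and 202 CPM in control contralateral and 229, 236, 219, and 286 CPM in RaptorKO contralateral nerves. The sums did not overlap on the injured side and overlapped on the contralateral side, where the absolute levels were low. In 7 of the 66 genes, 3 of them called, every library of at least 1 group held 3 counts or fewer, and the median was -1.33 with such groups set to 3 counts per library. The number called was 13 to 23 when 1 library was left out, lowest without control contralateral 1 or 2, 12 without both controls numbered 3, and 5 with limma-voom.

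The following 4 genes show the pattern of opposite effects, of which Mki67, Cenpf, and Top2a are also among the 10 negative genes with the smallest p. Mki67 (ENSMUSG00000031004, chr7:135689784-135716361), the gene of the proliferation antigen Ki-67, stood at 798, 681, and 683 CPM in control and 423, 379, and 407 CPM in RaptorKO nerves after injury. In contralateral nerves it stood at 3.02, 5.98, and 5.39 CPM in control and 13.4, 13.5, 12.7, and 18.9 CPM in RaptorKO nerves. The knockout lowered it on one side and raised it on the other, the genotypes overlapped on neither, and the interaction was -2.43 (SE 0.24, adjusted p = 1.13e-04). Cenpf (ENSMUSG00000026605, chr1:189640606-189688086), a kinetochore protein, stood at 170.1, 139, and 158 CPM in control and 84.9, 70.5, and 72.8 CPM in RaptorKO nerves after injury and at 0.548, 0.901, and 0.882 CPM in control and 5.25, 3.22, 2.58, and 5.43 CPM in RaptorKO nerves on the contralateral side. All RaptorKO contralateral libraries exceeded all control contralateral libraries, although both were far below either injured group, and the interaction was -3.38 (SE 0.35, adjusted p = 1.60e-04). Top2a (ENSMUSG00000020914, chr11:98992943-99024189), the topoisomerase that untangles chromosomes before division, stood at 329, 313, and 313 CPM in control and 184, 169, and 166 CPM in RaptorKO nerves after injury and at 1, 2.78, and 0.98 CPM in control and 5.04, 6.13, 3.93, and 5.18 CPM in RaptorKO nerves on the contralateral side, with an interaction of -2.51 (SE 0.30, adjusted p = 5.14e-04). Again no library of one genotype reached the range of the other on either side. Ccna2 (ENSMUSG00000027715, chr3:36564865-36572150), cyclin A2, went from 171 ± 8.03 to 90.9 ± 15.5 CPM in injured nerves (mean ± SD, n = 3 each). On the contralateral side it was 0.592 ± 0.438 CPM in controls (n = 3) and 2.31 ± 0.371 CPM in RaptorKOs (n = 4), with an interaction of -2.82 (SE 0.40, adjusted p = 0.00211) that was lost with limma-voom only. Mki67, Cenpf, and Top2a overlap predicted genes on the other strand (Gm45240, Gm37239, and Gm26394), Ccna2 overlaps Exosc9, and the use of strand in counting was not stated. Markers of immune cells, some of which can divide, differed in their sums on the same sides. Macrophage markers summed to 375 to 413 CPM in control and 586 to 774 CPM in RaptorKO contralateral nerves. T and NK cell markers summed to 46 to 85.7 CPM in control and 11.3 to 18.2 CPM in RaptorKO injured nerves. Their part in the mitotic genes was not tested.

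The promoters of mitotic genes are known for CCAAT boxes, bound by NF-Y, and for cell cycle genes homology regions, bound by the DREAM complex and its successors. The upstream stretches of Mki67, Cenpf, and Top2a are shown because these genes moved together and in opposite directions on the 2 sides. They are the 250 bases before the RefSeq start on GRCm38.p6, all on the minus strand and written 5′ to 3′ along the gene. Capitals mark CCAAT or its reverse complement ATTGG, and TTTGAA or TTCGAA or the reverse complement TTCAAA.
Mki67, chr7:135716380-135716629: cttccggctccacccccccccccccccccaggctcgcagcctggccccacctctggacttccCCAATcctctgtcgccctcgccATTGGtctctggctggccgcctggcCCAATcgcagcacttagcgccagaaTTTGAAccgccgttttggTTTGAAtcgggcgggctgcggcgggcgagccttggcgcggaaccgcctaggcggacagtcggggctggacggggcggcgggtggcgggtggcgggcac
Cenpf, chr1:189688087-189688336: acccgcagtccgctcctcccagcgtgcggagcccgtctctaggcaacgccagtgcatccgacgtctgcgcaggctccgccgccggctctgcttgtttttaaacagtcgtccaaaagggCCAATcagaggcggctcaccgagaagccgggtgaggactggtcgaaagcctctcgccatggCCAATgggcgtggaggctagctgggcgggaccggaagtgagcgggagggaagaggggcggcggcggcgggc
Top2a, chr11:99024190-99024439: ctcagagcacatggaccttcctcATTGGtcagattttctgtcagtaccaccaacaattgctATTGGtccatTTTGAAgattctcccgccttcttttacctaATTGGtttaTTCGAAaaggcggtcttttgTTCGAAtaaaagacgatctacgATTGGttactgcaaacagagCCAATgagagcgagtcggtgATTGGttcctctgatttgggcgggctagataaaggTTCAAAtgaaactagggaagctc
Mki67 held 3 matches to the CCAAT box and 2 to the homology region, Cenpf 2 and 0, and Top2a 6 and 4. Of all 32851 windows of 300 bases in the RefSeq table, 37.4% held CCAAT and 19.2% a homology region on either strand. None of the 3 stretches held the AP-1 site TGACTCA or TGAGTCA. As only 5.2% of all windows held it, its absence from 3 stretches carries no weight. The windows also take in the 50 bases after the start, so their shares are not those of stretches of 250 bases. RefSeq windows were at hand for 124 of the 180 negative and 98 of the 137 positive genes, under 80% of each, and for 9928 of the 12851 tested genes. With that many genes unmatched, motif shares of the called genes were not compared with those of all promoters.

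Genes of DNA replication held fewer calls than those of mitosis. Of 48 tested, 3 (6.25%, against 1.40% of all tested genes) passed the test in the negative and 0 in the positive direction. Of the 48, 42 lay below 0, with a median of -0.25. Lig1, the ligase that joins Okazaki fragments, had an interaction of -0.77 (SE 0.16, adjusted p = 0.0202) and Rrm1, the large subunit of ribonucleotide reductase, one of -0.65 (SE 0.16, adjusted p = 0.041). Uhrf1, which guides maintenance DNA methylation, had one of -1.66 (SE 0.41, adjusted p = 0.0436). Lig1 was 68.6 ± 10.3 and 63.4 ± 2.21 CPM in control and RaptorKO injured nerves and 14.8 ± 0.852 and 23.3 ± 1.08 CPM in contralateral nerves, so its genotypes overlapped after injury and did not in contralateral nerves. The calls of Rrm1 and Uhrf1 were lost in 14 and 14 of 28 alternatives and that of Lig1 in 3. Of the list, 0 were called without control contralateral 2 or 3.

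Itih5 (ENSMUSG00000025780, chr2:10153571-10256529), a secreted member of the inter-alpha-trypsin inhibitor family, had the smallest p of the negative genes. After injury it stood at 403, 533, and 464 CPM in control and 112, 82.7, and 108 CPM in RaptorKO nerves, and in contralateral nerves at 397, 445, and 417 CPM in control and 418, 426, 412, and 407 CPM in RaptorKO nerves. Only the 3 RaptorKO injured libraries were low, and the other 10 libraries ran from 397 to 533 CPM. The interaction was -2.19 (SE 0.16, adjusted p = 4.01e-06). Sostdc1 (ENSMUSG00000036169, chr12:36314139-36318452), a secreted antagonist of BMP and Wnt ligands, had the same shape. It stood at 82, 140, and 113 CPM in control and 21.5, 11.4, and 15.8 CPM in RaptorKO nerves after injury and at 124, 124, and 129.5 CPM in control and 99.2, 91.9, 92.3, and 124 CPM in RaptorKO nerves on the contralateral side, with an interaction of -2.48 (SE 0.28, adjusted p = 2.69e-04). RaptorKO injured nerves were again the only low group. Neither gene passed the test for a response to the crush in controls (0.15 and -0.17 on the log2 scale), whereas in RaptorKOs they fell by 2.04 and 2.65.

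**Figure D3:**
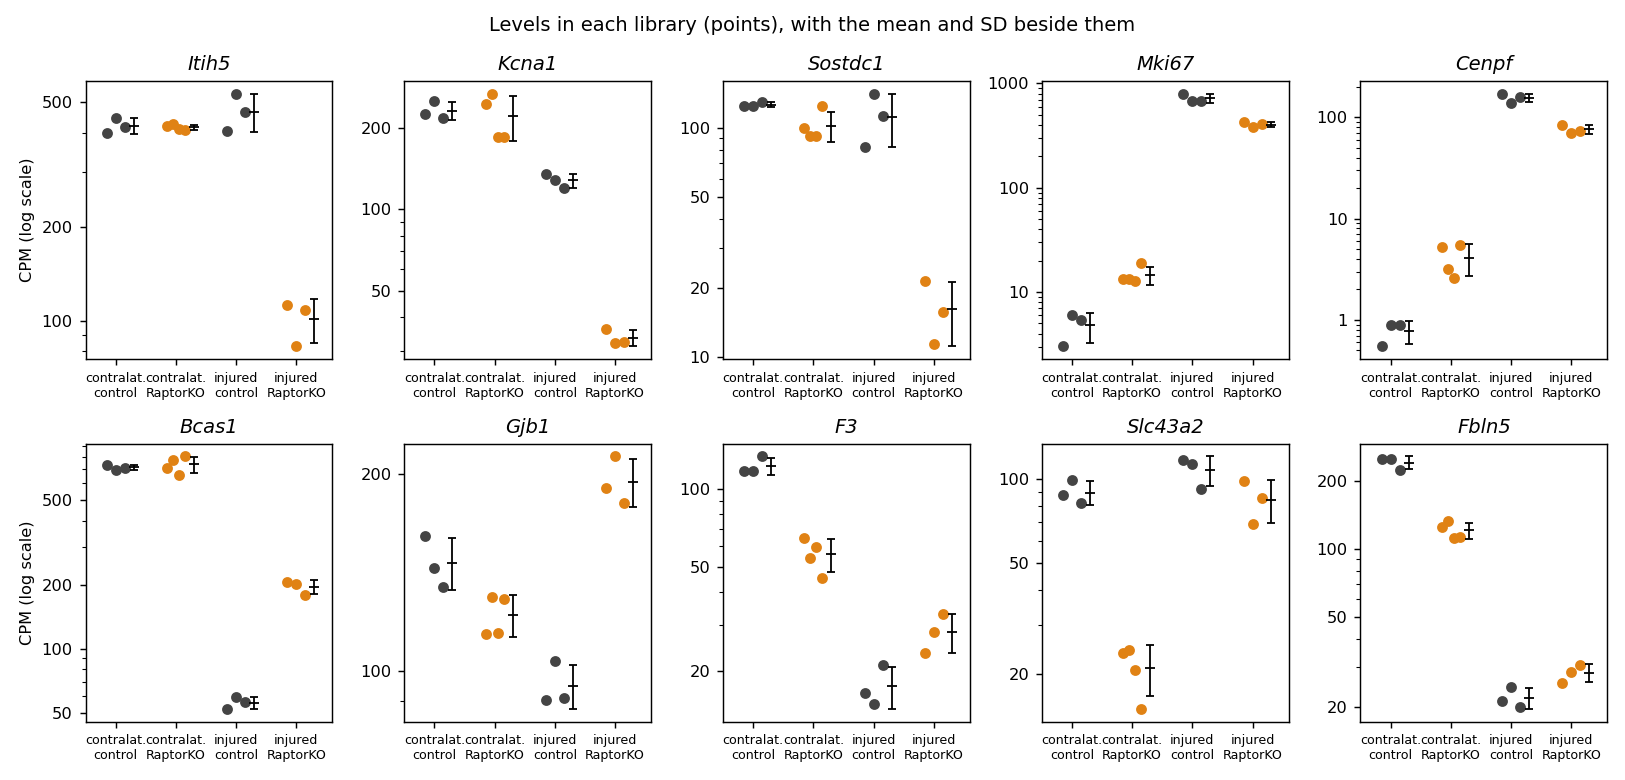
CPM of 10 genes in each library (points, log axis, one panel per gene), with the group mean and SD (bars) to the right of each group, for controls (dark grey, n = 3 on each side) and RaptorKOs (orange, n = 4 contralateral and n = 3 injured). RaptorKO injured nerves are the only low group for Itih5 and Sostdc1, and RaptorKO contralateral nerves for Slc43a2.

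Genes of the node and its flanking regions moved in part. Juxtaparanodes hold clusters of Kv1 potassium channels beside the paranodal junction, and their proteins are best known from axons. Of 18 tested genes of the node, paranode, and juxtaparanode, 4 (22.2%) passed the test in the negative and 1 (5.56%) in the positive direction, and the median was -0.24. Kcna1 (ENSMUSG00000047976, chr6:126640397-126646384), which encodes Kv1.1, stood at 135, 129, and 119.7 CPM in control and 36.1, 32, and 32.3 CPM in RaptorKO nerves after injury. In contralateral nerves it stood at 224, 251, and 218 CPM in control and 244, 267, 185, and 186 CPM in RaptorKO nerves, where the genotypes overlapped, and the interaction was -1.87 (SE 0.18, adjusted p = 1.13e-04). Kcna2 (ENSMUSG00000040724, chr3:107101146-107115005), which encodes Kv1.2, stood at 139, 164, and 149 CPM in control and 47.3, 38.7, and 39 CPM in RaptorKO nerves after injury and at 618, 622, and 603 CPM in control and 399, 386, 354, and 543 CPM in RaptorKO nerves on the contralateral side. The knockout lowered it on both sides, by 0.55 and 1.86 on the log2 scale for contralateral and injured nerves, and the interaction was -1.31 (SE 0.19, adjusted p = 0.00211). Adam23, a receptor of LGI proteins, rose by 0.55 with injury in controls and fell by 0.47 in RaptorKOs, with an interaction of -1.02 (SE 0.15, adjusted p = 0.00218). Kcna6 was the other negative member and is named after its values were seen. Nfasc, neurofascin of the node and paranode, went the other way. It was 103 ± 11.3 and 141 ± 15.1 CPM in control and RaptorKO injured nerves and 801 ± 60.4 and 612 ± 96.9 CPM in contralateral nerves, with an interaction of 0.84 (SE 0.18, adjusted p = 0.0216), lost in 8 of 28 alternatives. Its libraries overlapped on the contralateral side. Axonal transcripts, such as neurofilaments, held 0 calls among 10 tested genes, with a median of 0.20 and 0 or 1 positive calls under the alternatives.

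Structural myelin genes, which the crush lowered steeply, had a median interaction of 0.07. Of 24 tested, 0 passed the test in the negative and 2 (8.33%, against 1.07% of all tested genes) in the positive direction. With the replicate block, 2 negative and 4 positive members were called. Mbp, myelin basic protein, was 646 ± 109.6 and 655 ± 86.8 CPM in control and RaptorKO injured nerves, with an interaction of 0.04 (SE 0.21, adjusted p = 0.959). Its genotypes overlapped on both sides, and the sign of the interaction changed when single libraries were left out. Bcas1 (ENSMUSG00000013523, chr2:170346991-170427845), a gene of myelin-forming glia, was the positive gene with the smallest p. It stood at 51.9, 59.3, and 56 CPM in control and 207, 201, and 179 CPM in RaptorKO nerves after injury and at 734, 692, and 711 CPM in control and 709, 770.4, 659, and 803 CPM in RaptorKO nerves on the contralateral side. Injured controls were lowest, injured RaptorKOs stood well above them, and the contralateral groups overlapped, with an interaction of 1.77 (SE 0.13, adjusted p = 4.01e-06). Gjb1 (ENSMUSG00000047797, chrX:101376378-101385629), the gap junction protein connexin 32, stood at 90.2, 104, and 91.2 CPM in control and 190.1, 213, and 181 CPM in RaptorKO nerves after injury and at 161, 144, and 134 CPM in control and 114, 129.7, 114, and 129 CPM in RaptorKO nerves on the contralateral side. The crush lowered it by 0.62 in controls and raised it by 0.68 in RaptorKOs, and the interaction was 1.30 (SE 0.14, adjusted p = 1.60e-04). Gjb1 is X-linked, and its call held without the controls numbered 3. Bcas1 overlaps Bcas1os1 and Bcas1os2 on the other strand.

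Lipid synthesis held few calls. Genes of sterol synthesis had 0 calls among 24 tested and a median of 0.14. The knockout lowered 13 of them in contralateral and 4 in injured nerves, and the crush lowered 23 of 24 in either genotype. Over all tested genes, the knockout lowered 6.03% and 5.49%, and the crush 31.1% in controls and 29.8% in RaptorKOs. Of 28 genes of fatty acid and sphingolipid synthesis, 1 (3.57%) had a negative interaction, with a median of 0.13. It was Ugt8a, which makes the myelin lipid galactosylceramide. Ugt8a stood at 60.2, 70.3, and 60.7 CPM in control and 40.0, 29.6, and 33.8 CPM in RaptorKO nerves after injury and at 809.7, 988, and 873 CPM in control and 966, 1005, 845, and 992 CPM in RaptorKO nerves on the contralateral side. Both genotypes lost most of it after the crush, the injured knockout nerves were lower still, and the interaction was -0.98 (SE 0.16, adjusted p = 0.0052).

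The repair program of SCs moved in part. Of 31 tested genes, 4 (12.9%) passed the test in the negative and 1 (3.23%), Cdh2, in the positive direction, with a median of -0.36, or -0.39 with groups of 3 counts or fewer at 3 counts per library. Cdh2 is named after its values were seen. Tnc (ENSMUSG00000028364, chr4:63959785-64047015), the matrix glycoprotein tenascin-C, stood at 575, 496, and 517 CPM in control and 171, 168, and 164 CPM in RaptorKO nerves after injury and at 21, 17.5, and 18.7 CPM in control and 16.4, 20.5, 9.38, and 19.4 CPM in RaptorKO nerves on the contralateral side. Injured controls stood far above injured RaptorKOs without overlap, the contralateral groups overlapped, and the interaction was -1.44 (SE 0.25, adjusted p = 0.00702). Ngfr (ENSMUSG00000000120, chr11:95568818-95587735), the neurotrophin receptor p75, behaved differently. It stood at 1788, 1588, and 1453 CPM in control and 1500, 1631, and 1250 CPM in RaptorKO nerves after injury, where the genotypes overlapped, and at 36, 40.4, and 43.8 CPM in control and 75.5, 63.4, 67.9, and 70.5 CPM in RaptorKO nerves on the contralateral side, where the knockout raised it by 0.79. Its interaction of -0.93 (SE 0.16, adjusted p = 0.0071) came with a change on the contralateral side. Ncam1, a cell adhesion molecule of immature and repair SCs, had an interaction of -0.90 (SE 0.18, adjusted p = 0.0173). Gfap, an intermediate filament, stood at 21.6, 20.5, and 23.3 CPM in control and 3.93, 2.76, and 2.02 CPM in RaptorKO nerves after injury and at 9.5, 6.63, and 7.94 CPM in control and 2.36, 3.45, 4.69, and 4.01 CPM in RaptorKO nerves on the contralateral side, and the interaction was -1.76 (SE 0.36, adjusted p = 0.0183). The knockout lowered Gfap on both sides without overlap, by 1.14 in contralateral and 2.90 in injured nerves. Gfap and Ncam1 were no longer called without the controls numbered 3, nor was Gfap without control contralateral 2.

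The transcription factors and ligands of the repair state did not pass the test. Jun, which encodes c-Jun, had an interaction of -0.29 (SE 0.22, adjusted p = 0.645) and overlapping genotypes on both sides. The other values were -0.68 for Runx2 (adjusted p = 0.319), 0.43 for the ligand Shh (adjusted p = 0.709), -0.99 for the trophic factor Gdnf (adjusted p = 0.599), and 0.58 for Sox2 (adjusted p = 0.538). Shh stood at 229, 208, and 205 CPM in control and 100.4, 203, and 148 CPM in RaptorKO nerves after injury and at 10.9, 7.45, and 8.04 CPM in control and 4.93, 6.74, 3.73, and 2.2 CPM in RaptorKO nerves on the contralateral side, lower in RaptorKOs without overlap on either side, although neither genotype effect passed the test. Olig1 was below the count minimum, with 16, 23, and 14 counts in control injured, 3, 4, and 4 in RaptorKO injured, and 0 in all contralateral libraries. No interaction can be given for a gene with no contralateral count. Egr2 (Krox20), the master regulator of myelination, stood at 36.9, 40.8, and 37.3 CPM in control and 43.5, 46.7, and 44.4 CPM in RaptorKO nerves after injury and at 385, 435, and 412 CPM in control and 343, 365, 265, and 291 CPM in RaptorKO nerves on the contralateral side. Its genotypes did not overlap on either side and lay in opposite order, and the interaction of 0.60 (SE 0.15, adjusted p = 0.0509) passed in 4 of 28 alternatives, which include DESeq2 and the replicate block. Pou3f1 (Oct6), the promyelinating factor, had an interaction of -0.76 (SE 0.23, adjusted p = 0.117) and passed in 2. Lists of promyelinating transcription factors (15 tested, median -0.11), trophic factors (18, -0.14, or -0.30 with the same floor), and the hedgehog pathway (12, -0.03) held 0 calls in either direction. Of 19 AP-1 and immediate early genes, 1 (5.26%) had a positive interaction, with a median of 0.23. It was Klf4, which stood at 17.8, 14.6, and 11.8 CPM in control and 47.2, 44.9, and 50.6 CPM in RaptorKO nerves after injury and at 13.9, 15.5, and 18.8 CPM in control and 22, 19.3, 22.8, and 14.9 CPM in RaptorKO nerves on the contralateral side, with an interaction of 1.38 (SE 0.24, adjusted p = 0.00718). The injured knockout nerves were the only high group, and the call was lost without both controls numbered 3.

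**Figure D4:**
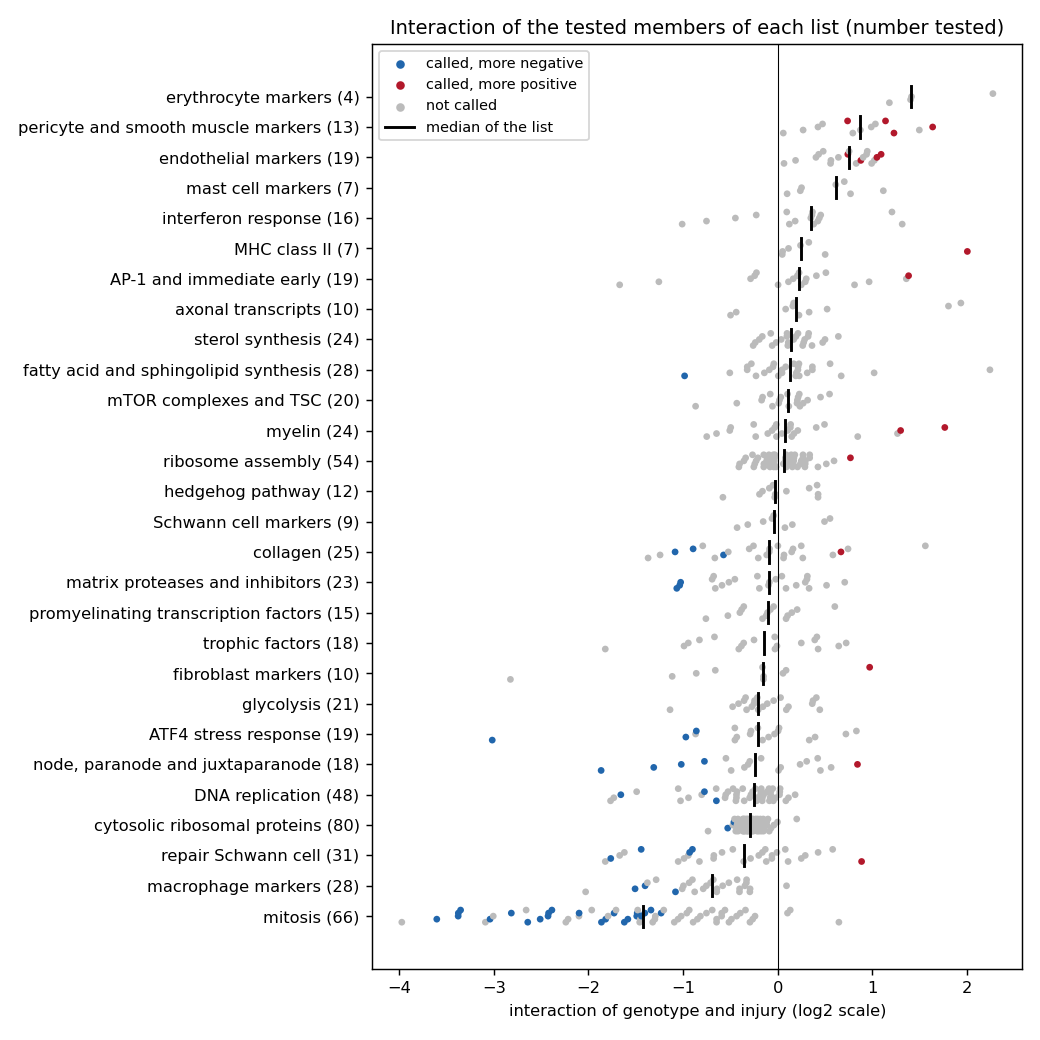
Interaction on the log2 scale (x axis) of the tested members of each list with at least 4 tested genes (y axis, number tested in parentheses), with called genes in blue and red and the median as a bar. Adipocyte markers, whose values reach -8.85, are not drawn. Mitosis lies lowest, with 23 called genes, and the vessel lists lie above 0 throughout.

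Markers of vessels lay above 0 throughout. Of 19 endothelial markers, 4 (21.1%) passed the test in the positive and 0 in the negative direction, 19 lay above 0, and the median was 0.76. Of 13 pericyte and smooth muscle markers, 4 (30.8%) passed the test in the positive and 0 in the negative direction, 13 lay above 0, and the median was 0.87. Leaving out 1 library gave 2 to 5 pericyte calls, lowest without RaptorKO injured 1, control contralateral 2, or control injured 3. Endothelial markers summed to 588, 725, and 865 CPM in control injured and 1144, 1666, and 1105 CPM in RaptorKO injured nerves, against 1107 to 1133 and 1109 to 1254 CPM in control and RaptorKO contralateral nerves. Injured controls were the only low group. Vwf (ENSMUSG00000001930, chr6:125546774-125686679), von Willebrand factor, stood at 116, 146, and 153 CPM in control and 270.4, 368, and 255 CPM in RaptorKO nerves after injury and at 242, 226, and 208 CPM in control and 200.4, 249.6, 231, and 232 CPM in RaptorKO nerves on the contralateral side, with an interaction of 1.09 (SE 0.19, adjusted p = 0.00702). Rgs5 (ENSMUSG00000026678, chr1:169655501-169695813), a pericyte regulator of G protein signaling, stood at 210.1, 261, and 286 CPM in control and 449.5, 623, and 514 CPM in RaptorKO nerves after injury and at 253, 290.2, and 297 CPM in control and 241, 265, 279, and 215 CPM in RaptorKO nerves on the contralateral side, with an interaction of 1.23 (SE 0.19, adjusted p = 0.00294). In both genes the injured RaptorKOs were highest and the contralateral groups overlapped. The further calls were Kdr (0.74), the VEGF receptor 2, Tek (0.88), the angiopoietin receptor, and Ly6c1 (1.05), which may share reads with close relatives. On the pericyte side they were Myl9 (1.64), a myosin light chain, Notch3 (1.14), and Cspg4 (0.74), the proteoglycan NG2. Kdr, Ly6c1, and Tek lost their calls in 13, 12, and 16 of 28 alternatives, and Notch3 and Cspg4 in 9 and 7. Leaving out 1 library left 1 to 7 endothelial calls and 2 to 5 pericyte calls. Without RaptorKO injured 2, the library with the highest vessel sums, 2 and 3 were left, with medians of 0.59 and 0.74.

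Macrophage markers lay on the other side of 0. Of 28 tested, 3 (10.7%) passed the test in the negative and 0 in the positive direction, 27 lay below 0, and the median was -0.69. The 29 macrophage markers in the table summed to 7787, 7944, and 7031 CPM in control injured and 8203, 4351, and 8306 CPM in RaptorKO injured nerves. In contralateral nerves they summed to 413, 375, and 404 CPM (controls) and to 698, 586, 702, and 774 CPM (RaptorKOs). The contralateral genotypes did not overlap and the injured ones did, with RaptorKO injured 2 the lowest injured library. The knockout raised 13 of the 28 markers in contralateral nerves, against 4.09% of all tested genes. In injured nerves it moved 0, against 5.49% of all tested genes lowered and 4.66% raised. Lyz2, lysozyme, stood at 1920, 2131, and 1802 CPM in control and 2099, 1012, and 1939 CPM in RaptorKO nerves after injury and at 61.5, 61.7, and 73 CPM in control and 127, 104, 119.7, and 126 CPM in RaptorKO nerves on the contralateral side, with an interaction of -1.08 (SE 0.27, adjusted p = 0.0474). RaptorKO contralateral nerves were above their controls without overlap, and after injury only RaptorKO injured 2 was low. Trem2, a lipid receptor of phagocytes, had an interaction of -1.40 (SE 0.29, adjusted p = 0.019) and the protease gene Ctss one of -1.51 (SE 0.36, adjusted p = 0.0394). These calls were lost in 13, 4, and 10 of 28 alternatives, and the number called on the list ran from 0 to 8. It was 0 with limma-voom or without both controls numbered 3, 7 with no count filter, and 8 with DESeq2 or the replicate block. Leaving out 1 library gave 1 to 6. Without RaptorKO injured 2, 5 were called and the median was -0.47.

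**Figure D5:**
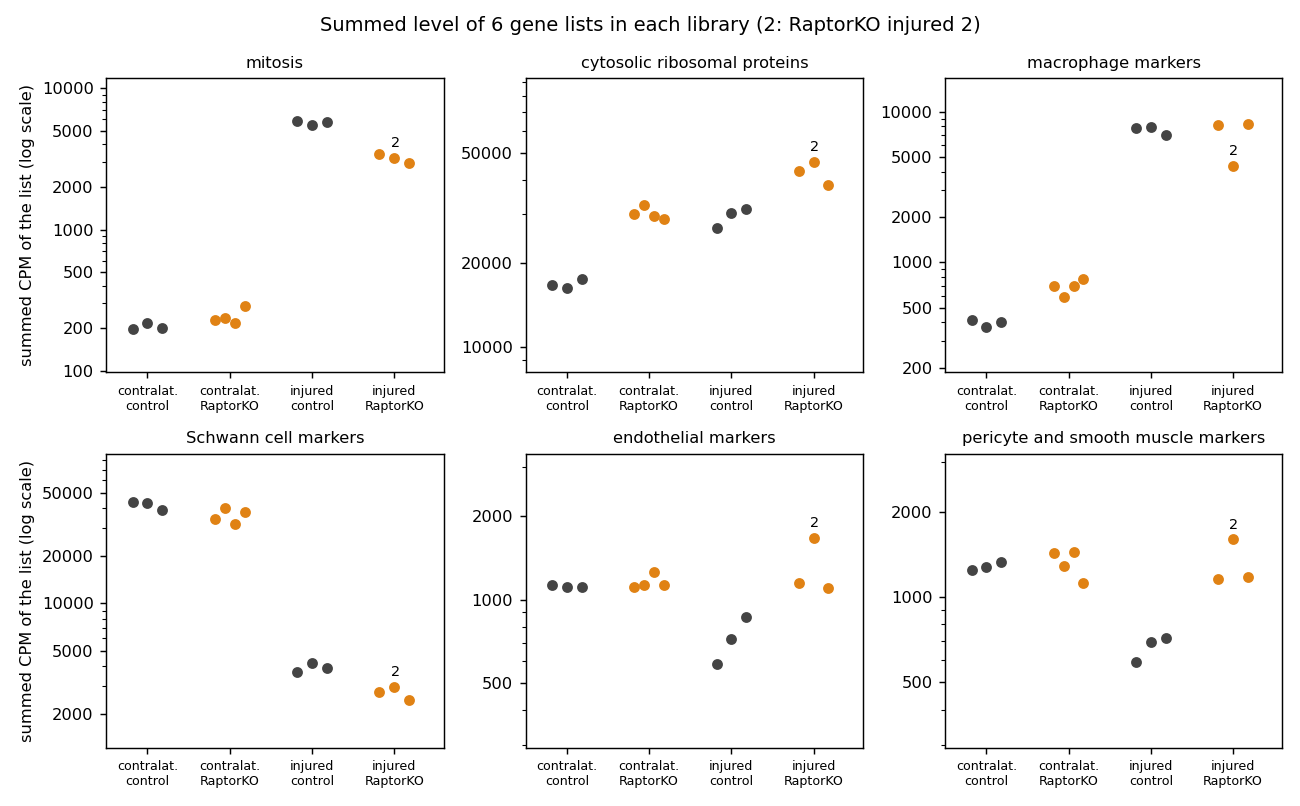
Summed CPM of all members in the table, tested or not, of 6 gene lists in each library (points, log axis). Controls are dark grey and RaptorKOs orange, with RaptorKO injured 2 marked by its number. Mitotic genes separate the genotypes after injury, macrophage markers separate them in contralateral nerves, and vessel markers are lowest in the 3 control injured nerves.

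Several positive genes were those that the knockout lowered in contralateral nerves and not after injury. Slc43a2 (ENSMUSG00000038178, chr11:75531694-75577575), a transporter of neutral amino acids, stood at 117, 113, and 92.2 CPM in control and 98.2, 69.2, and 85.2 CPM in RaptorKO nerves after injury and at 87.7, 98.7, and 81.8 CPM in control and 23.9, 24.5, 20.7, and 15 CPM in RaptorKO nerves on the contralateral side. RaptorKO contralateral nerves were the only low group, and the interaction was 1.73 (SE 0.22, adjusted p = 9.46e-04). Fbln5 (ENSMUSG00000021186, chr12:101746565-101819055), an elastic fiber protein, stood at 21.3, 24.5, and 20.0 CPM in control and 25.5, 28.7, and 30.8 CPM in RaptorKO nerves after injury and at 249, 251, and 223 CPM in control and 124, 133, 112, and 113 CPM in RaptorKO nerves on the contralateral side, with an interaction of 1.36 (SE 0.15, adjusted p = 2.10e-04). Its contralateral genotypes did not overlap, and both injured groups were far lower, with RaptorKOs slightly above controls. H2-DMb1, which helps load peptides onto MHC class II, stood at 23.6, 23.9, and 22.5 CPM in control and 29.4, 20.4, and 35.6 CPM in RaptorKO nerves after injury and at 146, 145, and 141 CPM in control and 52.6, 55.1, 33.4, and 32.4 CPM in RaptorKO nerves on the contralateral side, with an interaction of 2.00 (SE 0.28, adjusted p = 0.00189). The control contralateral nerves were the only high group, and the injured genotypes overlapped. It was the only call among 7 MHC class II genes (14.3%, median 0.24, or -0.037 without both controls numbered 3), all of which lay above 0 with all libraries, and it has a close relative in the genome with which it may share reads. Tmem176a, which overlaps Tmem176b on the other strand, went from 238 ± 28.3 to 131 ± 5.22 CPM on the contralateral side and had an interaction of 1.15 (SE 0.14, adjusted p = 5.14e-04).

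Of the 31 genes with called and opposite effects, 9 were lower in contralateral and higher in injured RaptorKO nerves. F3 (ENSMUSG00000028128, chr3:121723537-121735048), tissue factor, which starts blood coagulation, stood at 16.4, 14.8, and 20.9 CPM in control and 23.4, 28, and 33.1 CPM in RaptorKO nerves after injury and at 116, 117, and 133 CPM in control and 64.6, 54.3, 59.6, and 45.4 CPM in RaptorKO nerves on the contralateral side. The order of the genotypes switched between the sides without overlap on either, and the interaction was 1.82 (SE 0.21, adjusted p = 4.20e-04). Daam2, a formin of the Wnt pathway, had one of 1.31 (SE 0.19, adjusted p = 0.00235), Itga8, integrin alpha 8, one of 1.76 (SE 0.26, adjusted p = 0.00235), and Traf1, an adaptor of TNF receptors, one of 2.13 (SE 0.32, adjusted p = 0.00294). Atrn, attractin, had an interaction of 1.08 (SE 0.16, adjusted p = 0.00246). The crush lowered Itga8 by 1.17 and Atrn by 0.78 in controls and raised them by 0.60 and 0.30 in RaptorKOs. In the opposite order, Olfml2a, an extracellular olfactomedin-like protein, stood at 48.8, 66.7, and 74.5 CPM in control and 27.8, 32, and 30.4 CPM in RaptorKO nerves after injury and at 26.4, 24.6, and 31.1 CPM in control and 40.8, 33, 40.9, and 40.2 CPM in RaptorKO nerves on the contralateral side, with an interaction of -1.57 (SE 0.21, adjusted p = 0.00128). Its genotypes overlapped on neither side. Gm42427, a locus whose biotype is still open in the annotation, was 487 ± 33.4 and 299 ± 8.87 CPM in control and RaptorKO injured nerves and 138 ± 6.58 and 182 ± 8.5 CPM in contralateral nerves, with an interaction of -1.11 (SE 0.11, adjusted p = 1.13e-04).

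Other genes with a small p changed mainly on the injured side. Epha5 (ENSMUSG00000029245, chr5:84054761-84417382), an ephrin receptor, stood at 136, 116, and 128 CPM in control and 31.7, 40.7, and 34.4 CPM in RaptorKO nerves after injury and at 9.87, 7.86, and 8.53 CPM in control and 6.64, 6.97, 7.18, and 9.32 CPM in RaptorKO nerves on the contralateral side. It rose with injury by 3.86 in controls and 2.25 in RaptorKOs, and the interaction was -1.60 (SE 0.20, adjusted p = 7.19e-04). Among the positive genes, Col9a2, a chain of collagen IX, stood at 7.25, 6.45, and 5.7 CPM in control and 22.2, 19.5, and 16.6 CPM in RaptorKO nerves after injury and at 30.5, 26, and 25.7 CPM in control and 28.9, 32.1, 27.7, and 25.1 CPM in RaptorKO nerves on the contralateral side, with an interaction of 1.53 (SE 0.21, adjusted p = 0.00178). Injured controls were its lowest group, and the contralateral groups overlapped. Ptprm, a receptor tyrosine phosphatase, had an interaction of 0.90 (SE 0.13, adjusted p = 0.00218). For all 3 genes the injured genotypes did not overlap, and the genotype effect was called on the injured side only.

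Matrix genes moved in both directions. The collagen list does not hold every collagen tested and leaves out Col9a2, given above. Of its 25 tested members, 3 (12%) passed the test in the negative and 1 (4%) in the positive direction, with a median of -0.09. Col18a1, whose product yields endostatin, stood at 1073, 1114, and 948 CPM in control and 774, 667, and 583 CPM in RaptorKO nerves after injury and at 126, 138, and 123 CPM in control and 172, 196, 174, and 166 CPM in RaptorKO nerves on the contralateral side. It was lower in RaptorKOs on the first side and higher on the second, with an interaction of -1.08 (SE 0.15, adjusted p = 0.00165). The fibrillar chain Col5a2 had an interaction of -0.57 (SE 0.13, adjusted p = 0.0309), Col16a1 one of -0.89 (SE 0.20, adjusted p = 0.032), and Col5a3 one of 0.67 (SE 0.15, adjusted p = 0.0301). Col5a2 and Col16a1 lost their calls in 8 of 28 alternatives each and Col5a3 in 10. Leaving out 1 library left 1 to 3 negative calls, lowest without RaptorKO contralateral 1 or control injured 3. Of 23 matrix proteases and inhibitors, 3 (13%) passed the test in the negative and 0 in the positive direction, with a median of -0.10. Mmp14, a membrane-bound metalloprotease, was 367 ± 15.4 and 276 ± 22.5 CPM in control and RaptorKO injured nerves and 48.1 ± 3.54 and 74.2 ± 19.1 CPM in contralateral nerves, with an interaction of -1.04 (SE 0.22, adjusted p = 0.0243). Mmp19 had one of -1.03 (SE 0.21, adjusted p = 0.0186) and Adamts1 one of -1.07 (SE 0.26, adjusted p = 0.0419). In the order given, the 3 calls were lost in 7, 3, and 12 of 28 alternatives. Of the list, 0 were called without control contralateral 3, alone or with control injured 3. Fibroblast markers held 1 call among 10 tested (10%, median -0.16). It was Mfap5, a microfibril protein, which stood at 33.7, 28.2, and 35.9 CPM in control and 47.6, 40.7, and 56.1 CPM in RaptorKO nerves after injury and at 622, 687, and 632 CPM in control and 490.1, 505, 471, and 483 CPM in RaptorKO nerves on the contralateral side, with an interaction of 0.97 (SE 0.15, adjusted p = 0.0039). RaptorKOs were above controls after injury and below them on the contralateral side, without overlap.

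Ribosomal protein genes were higher in RaptorKOs on both sides, and few of them passed the test of the interaction. Against 4.09% of all tested genes in contralateral and 4.66% in injured nerves, the knockout raised 74 and 64 of the 80 tested here. It lowered 0 of them on either side. They summed to 26720, 30380, and 31330 CPM in control injured and 43100, 46220, and 38130 CPM in RaptorKO injured nerves, and to 16730, 16240, and 17500 and 30000, 32480, 29460, and 28940 CPM in control and RaptorKO contralateral nerves. The genotypes did not overlap on either side. The interaction lay below 0 for 79 of 80, with a median of -0.30, but was called for only 2 (2.5%), Rpl29 (-0.53, adjusted p = 0.0481) and Rpl23a (-0.46, adjusted p = 0.0481). Their calls were lost in 19 and 18 of 28 alternatives, and ribosomal protein genes may share reads with processed copies. Of 54 ribosome assembly factors, 1 (1.85%), Nop14, had a positive interaction of 0.77 (SE 0.17, adjusted p = 0.0253), with a median of 0.07 for the list. Genes of the ATF4 stress response held 3 negative calls among 19 tested (15.8%, median -0.21). Aldh1l2, a mitochondrial folate enzyme, stood at 7.52, 7, and 8.55 CPM in control and 3.48, 2.92, and 2.94 CPM in RaptorKO nerves after injury and at 1.28, 0.819, and 0.49 CPM in control and 3.21, 1.92, 2.49, and 4.4 CPM in RaptorKO nerves on the contralateral side. The order of the genotypes switched between the sides without overlap. The crush raised Aldh1l2 by 3.13 in controls, did not move it past the test in RaptorKOs (0.11), and left an interaction of -3.02 (SE 0.51, adjusted p = 0.00619). Atf5, a transcription factor of that response, had one of -0.97 (SE 0.18, adjusted p = 0.00968) and Vldlr, a lipoprotein receptor, one of -0.86 (SE 0.22, adjusted p = 0.0491). The calls of Vldlr and Nop14 were lost in 15 and 6 of 28 alternatives, and that of Atf5 without both controls numbered 3. Lists of glycolysis (21 tested, median -0.21) and of the mTOR complexes and TSC (20 tested, median 0.11) held 0 calls.

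The largest fitted values belonged to weakly expressed genes. Where 3 counts or fewer were found in each library of a group, the fitted interaction depends on the prior count, so the levels are described here, with 3 counts per library as the floor. Slco1c1, a thyroid hormone transporter, held at most 1 count in control injured nerves and stood at 1.52, 1.42, and 1.38 CPM in RaptorKO injured nerves, at least 5.1-fold higher. Mast1, a microtubule-associated kinase, held at most 3 counts in control injured nerves and was at least 15.4-fold higher in RaptorKO injured nerves. For Cdh3, P-cadherin, the bound was at least 2.84-fold higher there. Gm28539 held at most 1 count in RaptorKO injured nerves and was at least 12.3-fold higher in control injured nerves. On the contralateral side it stood at 1.46, 2.29, and 3.04 CPM in control and 5.68, 6.51, 0, and 2.07 CPM in RaptorKO nerves. RaptorKO contralateral 3 thus held none either, and the locus overlaps Gm15798 and Mrpl40 on the other strand. In contralateral nerves, the RaptorKO mean of Aldh1a2, which makes retinoic acid, was at least 5.44-fold higher than the floor of the controls. The RaptorKO mean of Kif14, a mitotic kinesin, was at least 2.13-fold above that floor. However, RaptorKO contralateral 1, at 0.214 CPM, lay below the floor of 0.271 CPM. Olfm2, an olfactomedin, stood at 0.275, 1.01, and 0.885 CPM in control and 13.2, 14.3, and 12.9 CPM in RaptorKO nerves after injury and at 0.914, 1.06, and 0.686 CPM in control and 0.857, 2.53, 1.05, and 2.85 CPM in RaptorKO nerves on the contralateral side, with an interaction of 3.19 (SE 0.73, adjusted p = 0.0334). RaptorKO injured nerves were its only high group. Psrc1, a spindle-associated protein, had an interaction of -3.75 (SE 0.62, adjusted p = 0.00429), Gfra3, the artemin receptor, one of -4.27 (SE 0.94, adjusted p = 0.027), and the processed pseudogene Gm6741 one of 3.74 (SE 0.72, adjusted p = 0.0128). Gfra3 lost its call in 9 of the 25 alternatives that tested it, Gm28539 in 15 of 26, and Olfm2 in 9 of 28. Kif14 lost it in 6, and Slco1c1 and Cdh3 in 5 each.

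Markers of the other cell types held no interaction call, with exceptions under alternatives for adipocyte, erythrocyte, and interferon genes. The sums below also hold listed genes that were not tested. They cover 12 mast cell, 14 T and NK cell, 6 erythrocyte, and 11 adipocyte genes. Mast cell markers (7 tested, median 0.61, 7 above 0) summed to 41.5, 12.2, and 58.1 CPM in control injured and 119, 218, and 149.5 CPM in RaptorKO injured nerves, and to 20.2, 72, and 19.9 and 165, 108, 93.2, and 129.7 CPM in control and RaptorKO contralateral nerves. The knockout raised 5 of the 7 in injured and 4 in contralateral nerves, against 4.66% and 4.09% of all tested genes. The sums did not overlap on either side. The median rested on single libraries, as it was -0.72 without control contralateral 2, 0.12 without RaptorKO injured 2, 0.20 without control injured 2, and 1.05 without control injured 3. Without both controls numbered 3 it was 1.45. T and NK cell markers (2 tested) summed to 85.7, 46, and 57.7 CPM in control injured and 15.6, 11.3, and 18.2 CPM in RaptorKO injured nerves and to 5.69 CPM or less in contralateral nerves. Their median interaction was -2.59, or -3.18 with groups of 3 counts or fewer at the floor, and -0.13 with no count filter. Erythrocyte markers (4 tested) had a median of 1.41 and summed to 5.96 to 24.9 and 46.5 to 75.8 CPM in control and RaptorKO injured nerves, with 1 call without control injured 3, alone or with control contralateral 3. Adipocyte markers (8 tested) ran from 6.22 to 592 CPM between contralateral libraries, highest in RaptorKO contralateral 3 and control contralateral 3, and their median of -6.68 became -3.72 with groups of 3 counts or fewer at the floor. That median was -0.0145 without control injured 3, -3.70 without RaptorKO contralateral 3, -1.42 without both controls numbered 3, and -0.93 with limma-voom. With the replicate block, 4 of the 8 adipocyte markers were called negative, and with DESeq2 1. Interferon response (16 tested, median 0.36) and neutrophil markers (2 tested, -0.51, or -0.59 at the floor) also held 0 calls, apart from 1 positive interferon gene with DESeq2.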

How the data were processed

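RNA of 13 nerves was sequenced by the authors, trimmed with Trimmomatic, and quantified with RSEM (1.2.22, per the labels) against GRCm38. The deposited values are expected counts per gene, estimated by the authors and not normalized. Between 24.93% and 27.95% of the values above 0 were not whole, and all were rounded. All 13 columns matched labels and 0 columns were left unused. Gene IDs matched the GENCODE M21 annotation for 40634 of 40787 genes, and 17160 genes had no counts. The paper names a stranded library kit, but whether counting used strand is not given in the sources used here. The titles give crushed and contralateral nerves the same numbers without naming animals, and p-values measure the spread between these nerves.

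Genes with at least 50 counts in at least 2 libraries were fitted with edgeR (4.0.16, in R 4.3.3), with TMM factors and 1 mean per group over all 4 groups, which share 1 estimate of the spread. The interaction was tested by quasi-likelihood (edgeR) and adjusted by Benjamini-Hochberg over all tested genes. A gene was called at an adjusted p below 0.05 and more than 1.2-fold. Errors are SD over nerves for levels and SE of the fit for log2 values. Both genotype effects and both injury responses came from the same fit and share libraries with the interaction. The steps were tested on simulated data.

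Named genes were the 10 called genes with the smallest p and the 5 with the largest interaction in each direction, up to 4 called members of each of 32 gene lists, the 5 in each direction with the smallest p among those with called and opposite genotype effects, and Rptor, Jun, Runx2, Olig1, Shh, Gdnf, Sox2, Egr2, Pou3f1, and Mbp. Items that these rules also named are in part not reported here. The lists and named genes were chosen with earlier results of these data known. List counts carry no test of their own. Summed levels are the CPM of all members of a list found in the table, also those below the count minimum. Alternatives were DESeq2 (1.42.0), limma-voom (3.58.1), robust and legacy fits of the spread, a prior count of 10, and other scalings, filters, and thresholds. Further alternatives were a replicate block, no genes on X and Y, each library left out in turn, and both controls numbered 3 left out. Figures were drawn with matplotlib (3.10.9).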

Additional observations from a re-analysis of the deposited data

Results flagged for a closer look

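The effect of the knockout differed between injured and contralateral nerves, by a test of the interaction itself (edgeR's quasi-likelihood test, Benjamini-Hochberg adjusted p below 0.05 and more than 1.2-fold), for 180 genes in the negative and 137 in the positive direction. With the interaction on the log2 scale in parentheses, the named negative genes were Itih5 (-2.19), Kcna1 (-1.87), Mki67 (-2.43), Gm42427 (-1.11), Cenpf (-3.38), Sostdc1 (-2.48), Top2a (-2.51), Epha5 (-1.60), Olfml2a (-1.57), Gm28539 (-7.03), Kif14 (-4.99), Gfra3 (-4.27), Aldh1a2 (-3.98), Psrc1 (-3.75), Lig1 (-0.77), Rrm1 (-0.65), Uhrf1 (-1.66), Ccna2 (-2.82), Rpl29 (-0.53), Rpl23a (-0.46), Ugt8a (-0.98), Kcna2 (-1.31), Adam23 (-1.02), Tnc (-1.44), Ngfr (-0.93), Ncam1 (-0.90), Gfap (-1.76), Aldh1l2 (-3.02), Atf5 (-0.97), Vldlr (-0.86), Col18a1 (-1.08), Col5a2 (-0.57), Col16a1 (-0.89), Mmp19 (-1.03), Mmp14 (-1.04), Adamts1 (-1.07), Trem2 (-1.40), Ctss (-1.51), and Lyz2 (-1.08). The named positive genes were Bcas1 (1.77), Gjb1 (1.30), Fbln5 (1.36), F3 (1.82), Tmem176a (1.15), Slc43a2 (1.73), Col9a2 (1.53), H2-DMb1 (2.00), Ptprm (0.90), Daam2 (1.31), Slco1c1 (5.29), Mast1 (4.18), Gm6741 (3.74), Cdh3 (3.30), Olfm2 (3.19), Nop14 (0.77), Nfasc (0.84), Klf4 (1.38), Col5a3 (0.67), Vwf (1.09), Kdr (0.74), Ly6c1 (1.05), Tek (0.88), Rgs5 (1.23), Myl9 (1.64), Cspg4 (0.74), Notch3 (1.14), Mfap5 (0.97), Itga8 (1.76), Atrn (1.08), and Traf1 (2.13). The fitted values of Gm28539, Kif14, Aldh1a2, Slco1c1, Mast1, and Cdh3 rest on a group with 3 counts or fewer in every library and are not bounds.

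In the RaptorKO contralateral group, the only one with 4 libraries, 1 library stood apart from the other 3 by Dixon's test at the 95% level for 9 of 111 values, where chance gives about 1 in 20. Library 4 was apart for Mki67 (18.9 CPM), Atrn (187 CPM), and the summed collagens (8739 CPM). Library 3 was apart for the summed endothelial (1254 CPM), adipocyte (592 CPM), and erythrocyte markers (256 CPM). Library 2 was apart for Olfml2a (33 CPM) and the summed axonal transcripts (1126 CPM), and library 1 for Rpl29 (251 CPM).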

How the results depend on the processing

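The main counts were 180 negative and 137 positive genes, and 28 alternatives were run. DESeq2 gave 353 negative and 245 positive genes, and limma-voom gave 100 and 93. An adjusted p below 0.01 left 50 and 35, and without both controls numbered 3 there were 62 and 51. Leaving out 1 library gave 75 to 164 negative and 54 to 130 positive genes, lowest without control contralateral 2 in both directions. The negative count fell by over 1.5 times without control injured 2 (91) or 3 (114), RaptorKO injured 1 (117), control contralateral 1 (96), 2, or 3 (86), or RaptorKO contralateral 1 (96). The positive count did so without control injured 1 (83) or 2 (73), control contralateral 1 (65), 2, or 3 (80), or RaptorKO contralateral 1 (76). Other scalings gave 137 to 195 and 125 to 138, and dropping the count minimum gave 190 and 157 of 23627 genes tested. Of 70 named called genes, 33 kept their call in every alternative that tested them, and 37 lost it in at least 1. Dropping the fold minimum and an adjusted p below 0.01 reused the main fit. A prior count of 10 reran the same test with other shrinkage of the fitted values. These settings were not independent checks. Egr2 and Pou3f1 gained a call. Among named genes, the sign changed for 1 uncalled gene near 0, as leaving out 1 library moved Mbp from 0.04 to between -0.090 and 0.14, and Mbp was -0.047 without both controls numbered 3. The causes were not tested. Of 945 counts by list, 162 moved by over 1.5 times. The median of 9 of 32 lists changed sign in at least 1 alternative, and 3 of those medians were beyond 0.2 from 0 (mast cell, MHC class II, and the single muscle marker).

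The replicate numbers were not treated as pairs, because the labels name no animals. The crush was unilateral and the paper speaks of corresponding contralateral nerves, so equal numbers may mark 1 animal. Both controls numbered 3 also shared high Xist and low Y-linked counts. If the numbers mark animals, the main test leaves out a pairing that the replicate block takes in. With so few nerves per group, the correlations below cannot decide this. Deviations from the group means of same-numbered injured and contralateral nerves correlated at 0.07, 0.13, and 0.30 in controls and at -0.02, 0.21, and 0.17 in RaptorKOs, and control injured 1 and RaptorKO injured 1 correlated best with another number. With a replicate block, 207 negative and 170 positive genes were called, 142 and 116 of them shared with the fit without it. The block moved the negative calls from 3 to 8 for macrophage, 0 to 4 for adipocyte, 0 to 2 for fibroblast, 0 to 2 for myelin, and 23 to 17 for mitosis genes, and the positive calls from 2 to 4 for myelin genes.

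With 3 or 4 nerves per group, an interaction has the error of 4 group means. A call needed a change far beyond its SE. Vldlr, at -0.86 with an SE of 0.22, had an adjusted p of 0.0491 by the quasi-likelihood test. In the 4284 weakest genes the median SE was 0.39, so changes well beyond 0.39 could go uncalled.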
